A study of Mus musculus with 20 samples.

Results

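Cebpa, Cebpb, Cebpd and Cebpg encode 4 members of the C/EBP family of transcription factors, and their transcripts were followed here in the livers of mice given IL-1β. The members were the rows of each gene table whose gene symbol equalled one of the 4 names, so they are 4 of the 37681 genes listed and 4 of the 15578 genes detected. In the study, male mice aged 12 weeks (strain C57/BL6 in the labels, C57/B6J in their growth protocol) received either IL-1β at 20 µg/kg (5 mice) or saline (5 mice, the untreated group) into the peritoneum, and their livers were taken 4 h later. The same 10 RNA samples were made into poly-A libraries for an Illumina HiSeq and for an Ion Torrent Proton, and reads from each platform were aligned with STAR, GSNAP or STAR followed by Bowtie2, giving 6 tables of 10 libraries each. The mice carried no engineered allele, and whole liver was used, so fewer cells of a type and less RNA per cell cannot be told apart in any value below. Treatments were compared within a table, with the Illumina STAR table as the main one.

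C/EBP proteins bind DNA as dimers through a basic region and a leucine zipper, and most members can pair with one another and with other zipper proteins. C/EBPα, from Cebpa, is abundant in resting hepatocytes, where it keeps metabolic genes active and restrains division. C/EBPβ and C/EBPδ, from Cebpb and Cebpd, are known as factors that IL-1 and IL-6 induce and that act on the promoters of acute phase genes. C/EBPγ, from Cebpg, lacks the activation domains of the other members and works mostly as a partner in heterodimers, with ATF4 among its best known partners.

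All 4 genes are short and lie, in build NCBIM37 (mm9), on chromosomes 2, 7 and 16. Cebpa is a single exon of 2634 bases on the plus strand at chr7:35904312-35906945. Cebpg, with 3 exon blocks of 4935 bases in all, lies on the minus strand of the same chromosome at chr7:35831441-35841522, 62789 bases away from Cebpa with 2 annotated genes between them. Cebpd, on the plus strand at chr16:15887379-15888559, has 1180 exonic bases. In the GENCODE vM1 models used here for lengths it carries the biotype pseudogene, although the gene encodes C/EBPδ. Its levels per kilobase below rest on that model. Cebpb is a single exon of 1504 bases on the plus strand at chr2:167514415-167515918. An exon of Tmem189, a gene on the opposite strand, covers 312 of those bases (20.7%). The study made strand-specific libraries on both platforms, but whether the deposited counts used the strand is not given. Whether these counts keep reads of both genes apart within the overlap is therefore not known. Between the transcripts of the 4 members the longest identical stretch was 29 bases, shared by Cebpa and Cebpb. The transcript of Cebpg had similar sequence in 371 other genes, the closest being 2810007J24Rik at 83.3% identity over 462 bases.

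Promoter sequences of RefSeq (GRCm38.p6, 250 bases before to 50 after the gene start) were found for 3 of the 4 members, Cebpa, Cebpb and Cebpg. Those of Cebpa and Cebpb are printed because these genes moved in opposite directions after IL-1β. Capitals mark matches, on either strand, to TGACG (the half-site of the cAMP response element, bound by CREB and ATF factors) and to TATAAA (the TATA box). The Cebpa promoter lies on the plus strand at chr7:35119043-35119342 and the Cebpb promoter on the plus strand at chr2:167688665-167688964.
Cebpa: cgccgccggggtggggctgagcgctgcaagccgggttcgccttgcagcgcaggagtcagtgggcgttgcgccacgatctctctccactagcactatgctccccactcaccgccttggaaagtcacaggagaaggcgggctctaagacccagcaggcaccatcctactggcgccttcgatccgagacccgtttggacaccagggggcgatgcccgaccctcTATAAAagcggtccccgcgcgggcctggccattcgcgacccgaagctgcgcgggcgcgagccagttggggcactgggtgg
Cebpb: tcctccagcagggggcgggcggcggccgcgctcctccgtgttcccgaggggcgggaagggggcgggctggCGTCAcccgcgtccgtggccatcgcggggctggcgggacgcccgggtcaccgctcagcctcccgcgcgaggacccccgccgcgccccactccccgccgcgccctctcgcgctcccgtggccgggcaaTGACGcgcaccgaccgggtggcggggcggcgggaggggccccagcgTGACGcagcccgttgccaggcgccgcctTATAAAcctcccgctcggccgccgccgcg
The Cebpb window held 3 matches to TGACG, which 20.8% of 32851 RefSeq promoters of this length contain at least once, and the Cebpa window held none. TATAAA, present in 13.6% of promoters, was found in both windows, 30 to 25 bases before the listed start of Cebpa and 22 to 27 bases after that of Cebpb. The Cebpg window held neither, but had 2 matches to CCAAT, which occurs in 37.4% of promoters. The C/EBP pattern TTNCNNAA, present in 40.7% of promoters, was in none of the 3 windows. Patterns for NF-kB and STAT factors were searched too. That of NF-kB, present in 50.8% of promoters, was in the windows of Cebpa, Cebpb and Cebpg alike. That of STAT, present in 8.3%, was in none of them. All such matches are letters in a window, and binding was not measured.

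Library totals ran from 10568530 to 12008799 counts in the Illumina tables and from 12199528 to 16439683 in the Ion Torrent tables. The Illumina and Ion Torrent libraries of untreated mouse UNT_9584 differed more than those of the other mice. Over all detected genes their counts correlated at a Spearman rho of 0.949, against 0.967 to 0.974 for the other mice (STAR tables). This value does not tell which library stood apart. The paper also found the lowest correlations in this sample, along with a shifted distribution of its Ion Torrent read lengths. On Illumina its deviation from the other untreated libraries followed the GC content of the genes. The Spearman rho was -0.65 across 10841 genes, against -0.43 to 0.45 for the other Illumina libraries. Ion Torrent libraries also deviated along GC content, from -0.59 (ILB_9578) to 0.62 (ILB_9583), with 0.22 for UNT_9584. Main values are therefore also given without mouse UNT_9584.

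Cebpa, the C/EBP of resting hepatocytes, fell after IL-1β. In the Illumina STAR table the untreated mice had 2453, 3180, 3237, 3274 and 3225 counts, and the IL-1β treated mice had 2449, 1328, 1139, 1290 and 1391. Of the treated mice 4 lay well below every untreated mouse, while mouse ILB_9577 (mice are named as in the labels) had 4 counts fewer than untreated mouse UNT_9574, the lowest of its group. In all 6 tables the deposited counts of Cebpa were lower in every treated mouse than in every untreated one. Scaled to counts per 1000000 of the TMM-adjusted library (CPM), the groups averaged 269 ± 37.8 and 149 ± 47.6 (SD, n = 5 each) and overlapped through these 2 mice, and the CPM overlapped in the other 5 tables too. The log2 fold change was -0.85 (SE 0.17), which left 55.4% of the untreated level (edgeR quasi-likelihood test, Benjamini-Hochberg adjusted p = 9.2e-04). At that threshold 22.9% of the 15578 detected genes were lower and 22.7% higher by this fit, and the TMM-scaled groups did not overlap for 33.9% of them.

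Mouse ILB_9577 had the same high Cebpa value on the second platform. In the Ion Torrent STAR table it had 5053 counts, while the other treated mice had 2633, 2435, 2638 and 2844 and the untreated mice 5243, 6260, 6726, 6176 and 7192. Its response over other genes was weaker than that of its group by a smaller margin. For 2695 genes that passed the test and changed at least 2-fold without it, its median position was 88.7% of the way from the untreated mean to the mean of the other treated mice, against 97.1% to 103% for the other treated mice placed in the same manner, and it lay within the untreated range for 9.87% of them, against 5.86% to 7.35%. For Cebpa its position was 18.6%, and only 4.12% of those genes lay lower. Without this mouse the log2 fold change of Cebpa was -1.07 (SE 0.13) on Illumina and -1.09 on Ion Torrent (both STAR), and the CPM of the groups no longer overlapped in any of the 6 tables. Among treated mice it had the highest summed level of the hepatocyte, Kupffer cell and macrophage, endothelial, stellate and cholangiocyte marker lists. Both of its libraries also deviated toward GC-rich genes (Spearman rho 0.45 on Illumina and 0.41 on Ion Torrent). Those of ILB_9583, without a high Cebpa value, did so too (0.44 and 0.62). The part of cell makeup or of GC content in the Cebpa value of ILB_9577 was not tested.

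Cebpb rose. Its Illumina STAR counts were 132, 85, 140, 121 and 72 in untreated mice and 220, 185, 292, 226 and 328 in IL-1β treated mice, with no overlap. The mean went from 9.54 ± 2.41 to 24.7 ± 6.11 CPM (SD, n = 5 each), a log2 fold change of 1.37 (SE 0.19, edgeR adjusted p = 3.8e-05) or 2.58-fold. The lowest untreated count belonged to mouse UNT_9584, and without it the log2 fold change was 1.27. Tmem189, whose exon covers part of Cebpb, had 167 to 232 counts in untreated and 93 to 165 in treated mice and did not pass the test (log2 fold change -0.30, SE 0.17, edgeR adjusted p = 0.18).

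Cebpd rose most of the 4. It had 15, 14, 28, 12 and 6 counts in untreated mice and 61, 57, 57, 59 and 66 in treated mice of the Illumina STAR table. Every treated mouse was above every untreated one, and the treated mice were nearly equal. The mean rose from 1.29 ± 0.678 to 5.91 ± 0.42 CPM (SD, n = 5 each), a log2 fold change of 2.17 (SE 0.26, edgeR adjusted p = 7.7e-06) or 4.51-fold, and 97.8% of detected genes had a lower log2 fold change. Its 6 counts in mouse UNT_9584 were the lowest value, and without that mouse the log2 fold change was 1.99. On Ion Torrent (STAR) it was counted more often, with 65, 79, 98, 77 and 104 counts in untreated mice against 331, 412, 412, 257 and 279 in treated mice, and the log2 fold change was 2.15 (SE 0.17).

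Cebpg rose the least. Untreated mice had 1088, 1025, 944, 937 and 1190 counts and treated mice 1331, 1358, 1176, 1121 and 1094 in the Illumina STAR table. The groups overlapped through untreated mouse UNT_9584, whose count exceeded those of 3 treated mice. In CPM they still overlapped, but that mouse, at 110.6, exceeded only treated mouse ILB_9583, at 110.1. The log2 fold change was 0.40 (SE 0.10, edgeR adjusted p = 0.0049), a 1.32-fold rise, and it was 0.48 without mouse UNT_9584. On the deposited counts, with the rank-sum test that the study used, Cebpg did not pass in this table (q = 0.11), whereas Cebpa, Cebpb and Cebpd did (q = 0.033 to 0.036), as did 38.1% of detected genes. On Ion Torrent (STAR) the untreated mice had 623, 573, 558, 632 and 552 counts and the treated mice 842, 978, 831, 735 and 640, with no overlap and a log2 fold change of 0.61 (SE 0.11, edgeR adjusted p = 2.5e-04).

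**Figure D1:**
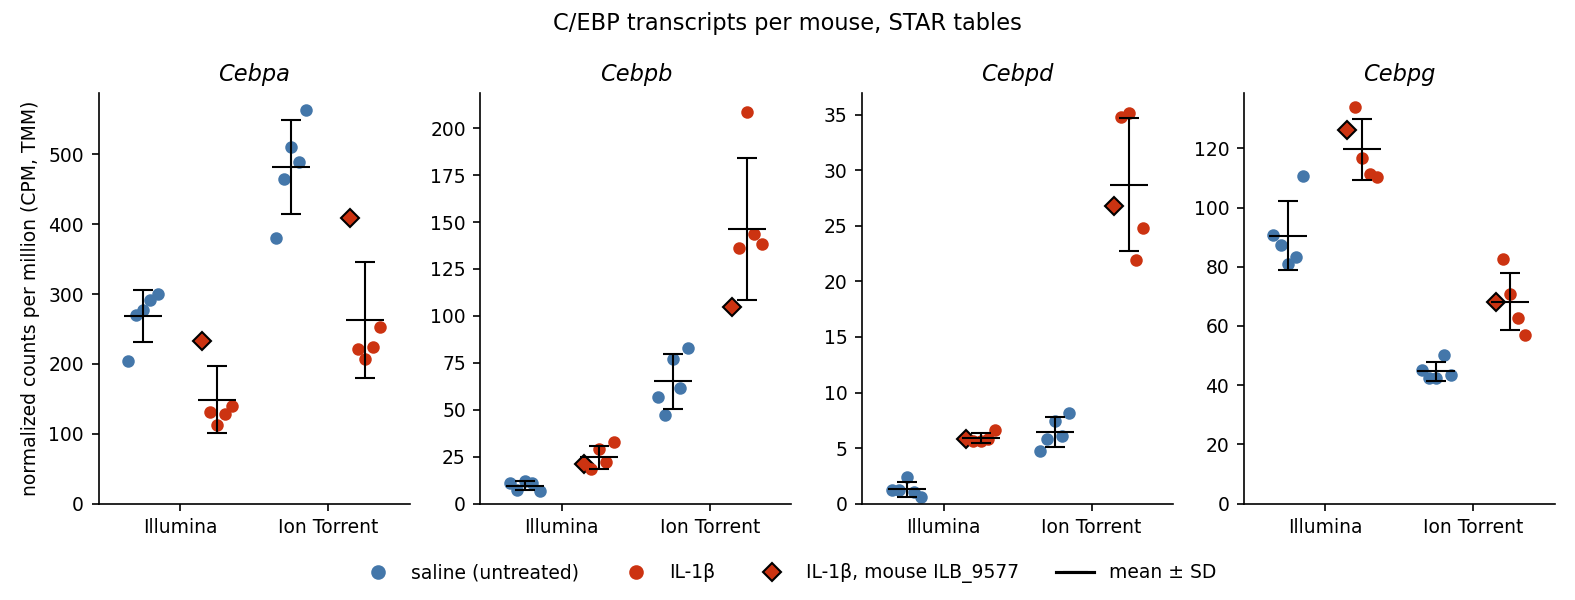
Normalized CPM (y axis, linear and starting at 0) of the 4 genes in each mouse, for the STAR tables of both platforms (x axis), with saline mice in blue, IL-1β mice in red, mouse ILB_9577 as a diamond, and mean ± SD in black. Treated mice lie below untreated ones for Cebpa, except mouse ILB_9577 at 232 CPM on Illumina and 409 on Ion Torrent, and lie above them for Cebpb and Cebpd on both platforms.

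All 4 members passed edgeR's test in the same direction in each of the 6 tables, as did 34.9% of detected genes. The log2 fold change of Cebpa lay between -0.87 and -0.85, that of Cebpb between 1.14 and 1.37, that of Cebpd between 2.07 and 2.17, and that of Cebpg between 0.40 and 0.61. In the Ion Torrent STAR table, 20.3% of detected genes were called higher and 21.8% lower. Whether the response differed between platforms was tested over the 20 STAR libraries with the mouse as a block, since both libraries of a mouse came from the same RNA. The platform-by-treatment term (Ion Torrent minus Illumina, log2) was -0.004 for Cebpa (95% CI -0.15 to 0.14), -0.18 for Cebpb (-0.53 to 0.17), -0.02 for Cebpd (-0.43 to 0.39) and 0.21 for Cebpg (0.008 to 0.41). These intervals were derived from each term and its F statistic, which is unstable for terms near 0. For Cebpd the SE was 0.20 here, 0.31 with DESeq2, and 0.11 to 1.19 when 1 mouse was left out. The intervals of Cebpa and Cebpd therefore give no firm bound. None of the 4 terms passed after adjustment over all genes (edgeR, smallest adjusted p = 0.70, for Cebpg), and 0.00642% of detected genes did, which is 1 gene. Without mouse UNT_9584 the terms of Cebpa, Cebpb, Cebpd and Cebpg were 0.02, 0.01, 0.26 and 0.13. A term of -0.53 for Cebpb or 0.41 for Cebpg lies at the edge of its interval.

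**Figure D2:**
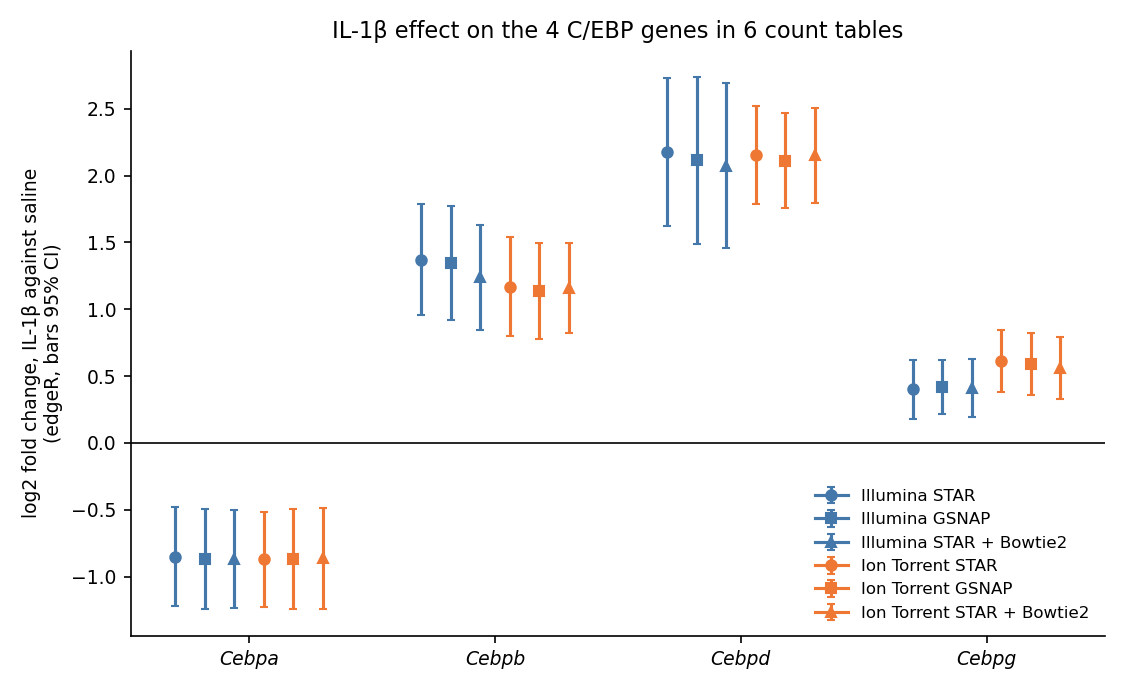
Log2 fold change of IL-1β against saline (y axis, points) with 95% confidence intervals (bars) from edgeR for each gene (x axis), in 6 tables marked by platform (colour) and aligner (symbol). Cebpa lies below 0 and the other 3 genes above 0 in all 6 tables, in the order Cebpd, Cebpb, Cebpg.

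Because dimers form between members, the ratios between their transcripts were also compared, each taken within 1 library so that library size cancels. The count ratio of Cebpb to Cebpa rose by 2.27 on the log2 scale (4.81-fold) in the Illumina STAR table. There were 18.6 to 44.8 Cebpa counts for each Cebpb count in untreated mice and 3.90 to 11.1 in treated mice. That of Cebpd to Cebpa rose by 3.23 (9.39-fold), from 116 to 538 Cebpa counts for each Cebpd count in untreated mice to between 20.0 and 40.1 in treated mice. Mouse UNT_9584 set both upper values, and without it the rises were 4.31-fold and 7.59-fold, still with no overlap. The ratio of Cebpg to Cebpa rose by 1.30 (2.45-fold). For these 3 ratios the groups did not overlap, mouse ILB_9577 included (exact two-sided permutation test, p = 0.00794, the smallest that 5 against 5 mice allow, adjusted over 6 pairs to 0.0119). Among the 3 members that rose, Cebpd gained on Cebpb by 0.96 and Cebpg lost 0.97 against Cebpb, both with overlapping groups (exact permutation p = 0.0159, adjusted p = 0.0159), and Cebpg lost 1.94 against Cebpd without overlap (adjusted p = 0.0119). All 6 ratio changes kept their sign and an adjusted p under 0.05 in each of the other 5 tables.

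**Figure D3:**
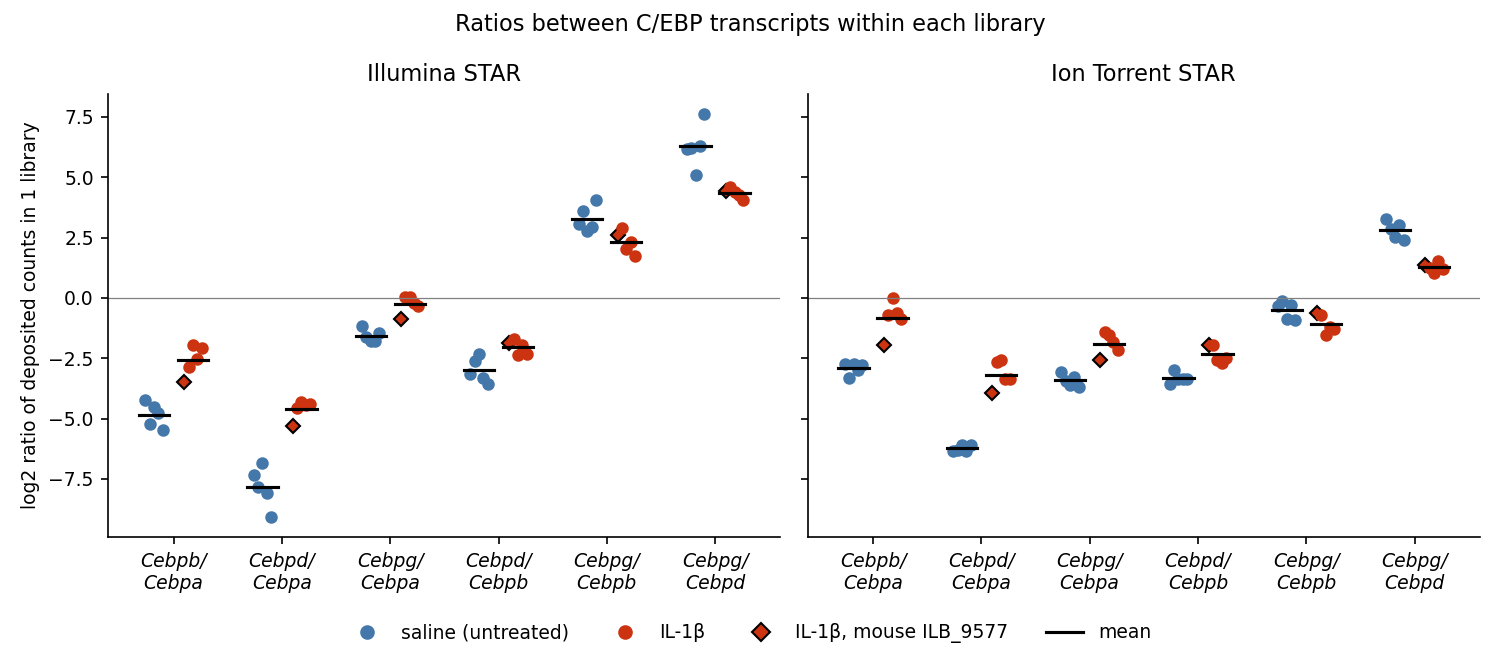
Log2 ratio of deposited counts of 2 C/EBP genes within each library (y axis) for the 6 pairs (x axis), Illumina STAR at left and Ion Torrent STAR at right, with saline mice in blue, IL-1β mice in red, mouse ILB_9577 as a diamond and group means as bars. The 3 ratios to Cebpa do not overlap between groups on either platform, and mouse ILB_9577 is the treated mouse nearest to the untreated group in each of them.

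Levels of different genes were compared per kilobase of exon (CPM per kb). In untreated mice of the Illumina STAR table Cebpa had 102 ± 14.3, Cebpg 18.3 ± 2.39, Cebpb 6.34 ± 1.60 and Cebpd 1.10 ± 0.574 CPM per kb (SD, n = 5 each). After IL-1β the order was the same, with 56.5 ± 18.1 for Cebpa, 24.2 ± 2.07 for Cebpg, 16.4 ± 4.06 for Cebpb and 5.01 ± 0.356 for Cebpd (SD, n = 5 each), and no neighbours in the order overlapped in either group of this table. In the GSNAP and STAR + Bowtie2 tables of Illumina the order of the means was the same, but Cebpg and Cebpb overlapped in treated mice and Cebpg was the higher in 3 of 5. Cebpa made up 79.6% ± 3.0 of the summed level of the 4 genes in untreated and 54.4% ± 7.2 in treated mice, while the share of Cebpb went from 5.06% ± 1.58 to 16.5% ± 4.87 (SD, n = 5 each). Without mouse UNT_9584 the untreated levels were 99.1, 17.3, 6.81 and 1.25 CPM per kb for Cebpa, Cebpg, Cebpb and Cebpd, and the untreated shares of Cebpa and Cebpb 79.3% and 5.54%.

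Ion Torrent gave another order. Its STAR table had 183 ± 25.7 CPM per kb for Cebpa, 43.3 ± 9.79 for Cebpb, 9.06 ± 0.652 for Cebpg and 5.47 ± 1.15 for Cebpd in untreated mice (SD, n = 5 each), with no overlap between neighbours. In treated mice Cebpa and Cebpb, at 100.0 ± 31.6 and 97.3 ± 25.2, overlapped and Cebpb was the higher in 3 of 5 mice, while Cebpd at 24.3 ± 5.07 lay above Cebpg at 13.8 ± 1.95 (SD, n = 5 each). In the other 2 Ion Torrent tables Cebpd was also above Cebpg in each of the 5 treated mice, but their ranges overlapped. The share of Cebpa went from 76.0% ± 2.31 to 42.3% ± 10.7 and that of Cebpb from 17.9% ± 2.36 to 41.5% ± 9.54. The mean share of Cebpa was lower and the mean shares of the other 3 higher in treated mice on both platforms, but Cebpg took different places in the order. By the means it lay above Cebpb on Illumina and below it on Ion Torrent in both groups, and in treated mice it was also below Cebpd on Ion Torrent. Levels set across platforms come from tables normalized separately and were not tested.

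The platforms parted along base composition. Exons of Cebpb, Cebpd and Cebpa have 67.2%, 63.0% and 62.6% G or C, above 99.8%, 99.2% and 99.0% of detected genes, and those of Cebpg have 43.6%, above 17.2% of them. As a share of library counts, Ion Torrent assigned 6.75 times as many to Cebpb in untreated mice (STAR tables) as Illumina, 4.91 times as many to Cebpd, 1.79 times as many to Cebpa and 0.493 times as many to Cebpg. Without mouse UNT_9584 these ratios were 5.82, 4.01, 1.74 and 0.518. The ratio of Cebpb was higher than those of 99.98% of 10561 genes with at least 20 counts on both platforms, and that of Cebpg was higher than those of 4.44%. Across these genes the ratio and the GC content had a Spearman rho of 0.81, a description over genes of the same libraries. Tmem189 was counted 1.12 times as often on Ion Torrent. The part of GC content, of the Tmem189 overlap and of alignment in the low Illumina count of Cebpb was not tested. To show what the base composition looks like, the most GC-rich 100 coding bases of Cebpb (chr2:167515052-167515151, plus strand, NCBIM37, 85% G or C, inside the stretch that the Tmem189 exon covers) are printed, with no bases in capitals. The richest 100 coding bases of Cebpa had the same GC content (85%), whereas over all exons Cebpb had 67.2% and Cebpa 62.6%.
Cebpb: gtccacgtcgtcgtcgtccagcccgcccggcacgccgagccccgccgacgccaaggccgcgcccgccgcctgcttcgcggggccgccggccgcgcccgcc

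**Figure D4:**
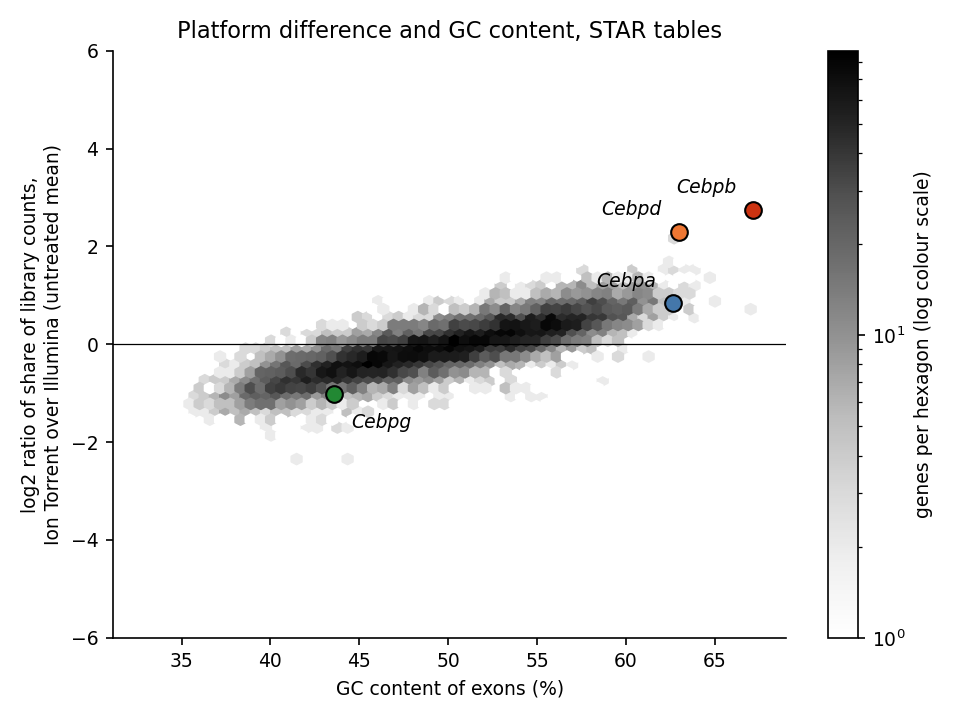
Log2 ratio of a gene's share of library counts on Ion Torrent over that on Illumina (y axis, mean of the 5 untreated mice, STAR tables) against the GC content of a gene's exons (x axis, percent), with 10561 genes as grey hexagons on a log colour scale and the 4 C/EBP genes as coloured points. Cebpb at 2.75 and Cebpd at 2.30 lie above the cloud at its GC-rich end, and Cebpg at -1.02 lies at its lower edge; Cebpd, below 20 counts on Illumina, is drawn but is not among the 10561.

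Each RNA was sequenced on both platforms, so it could be asked whether differences between mice of 1 group recurred. For Cebpa the deviation of a mouse from its group mean on Illumina was almost the same on Ion Torrent (STAR tables, 10 mice, Pearson r = 0.98, Spearman rho = 0.96, exact permutation p = 4.2e-04 and 7.6e-04 within groups, adjusted over 4 genes 0.0017 and 0.0031). Without mice UNT_9574 and ILB_9577, the 2 farthest from the median, r was 0.94. The deviations were still those from the group means with these mice included. An offset between the groups therefore remains in that value, and how much r owes to it was not tested. For the other members it did not pass: r was 0.27 for Cebpb, -0.19 for Cebpd and 0.36 for Cebpg, and rho was 0.27, -0.61 and 0.52 (exact permutation p between 0.094 and 0.75 over r and rho, adjusted p between 0.18 and 0.75). Without the 2 farthest mice, which included UNT_9584 for each of these 3 genes, r was 0.67, -0.57 and 0.31, again with the group means unchanged. Leaving out mouse UNT_9584 alone, with group means taken anew, gave r of 0.63 for Cebpb, 0.32 for Cebpd and 0.70 for Cebpg. The Spearman rho was then 0.63, 0.02 and 0.72. Cebpd had only 6 to 28 Illumina counts in untreated and 57 to 66 in treated mice. Library deviations along GC content had the same sign on both platforms in all treated mice, but not in all untreated mice. Their part in the recurrence of the Cebpa deviations was not tested.

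**Figure D5:**
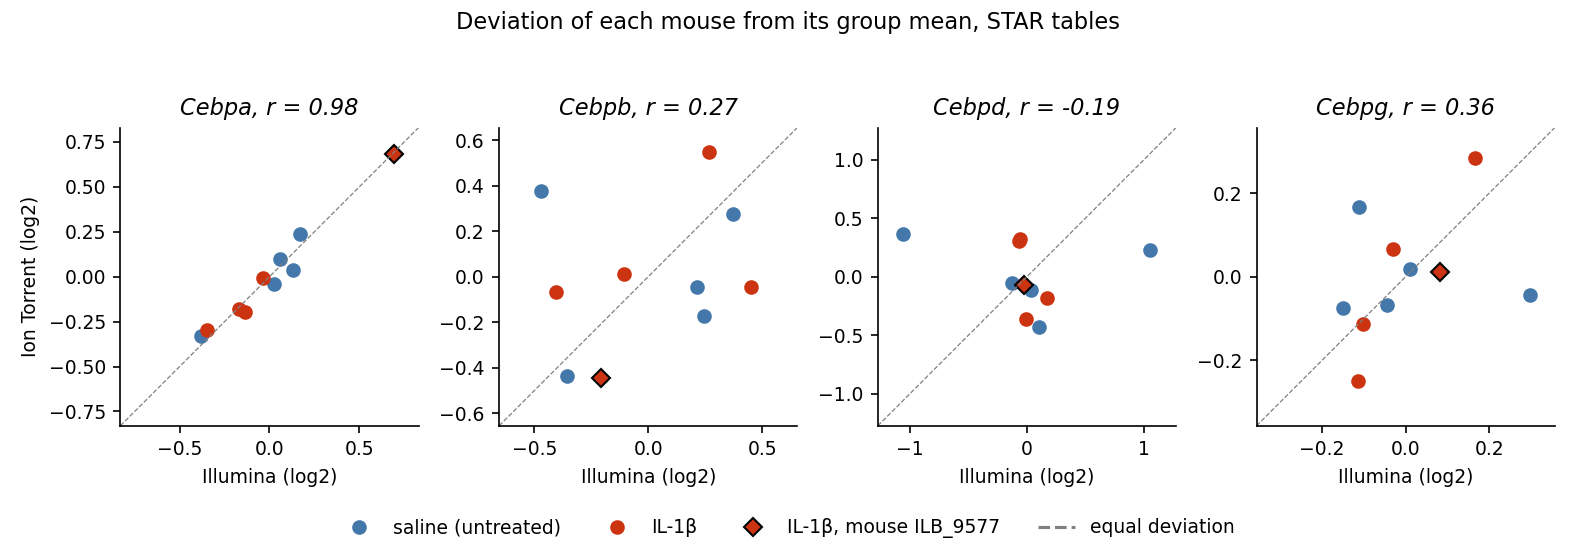
Deviation of each mouse from the mean of its treatment group in log2 CPM (x axis for the Illumina library, y axis for the Ion Torrent library of the same mouse, STAR tables), 1 panel per gene, with saline mice in blue, IL-1β mice in red, mouse ILB_9577 as a diamond and the dashed line for equal deviation. Cebpa follows the line (r = 0.98) and the other genes scatter (r = 0.27, -0.19 and 0.36).

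The genes whose deviations over the 10 mice were most like those of each member were found among 10543 genes with at least 20 counts on both platforms, as the mean of the Pearson r on Illumina and Ion Torrent (STAR). For Cebpa they were Snx33, Ablim3 and Dhtkd1 (mean r 0.90, 0.89 and 0.88). For Cebpb they were Sema6b, Fgfrl1 and Sbno2 (0.83, 0.82 and 0.80), for Cebpd Tha1, Gadd45b and Sec61b (0.83, 0.80 and 0.80), and for Cebpg Sh3bgrl, Dek and Btf3 (0.89, 0.89 and 0.88). The log2 fold changes after IL-1β (Illumina STAR), in the same order, were -0.42, 0.33 and -1.60 for the genes most like Cebpa, 2.33, -0.76 and 1.497 for those most like Cebpb, 0.24, 2.18 and 0.60 for those most like Cebpd, and -0.20, -0.31 and 0.28 for those most like Cebpg. All were picked as the highest of 10543 values over 10 mice, so a high mean r follows in part from the choice. Whether these values exceed chance was not tested. The deviations of Cebpb, Cebpd and Cebpg did not themselves pass between platforms (Pearson r = 0.27, -0.19 and 0.36). The part of library deviations along GC content in these likenesses was not tested.

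Among 14 relatives and partners of the family, all detected, 8 rose and 4 fell in the Illumina STAR table (edgeR adjusted p under 0.05; 22.7% and 22.9% of detected genes did), with a median log2 fold change of 0.74 against 0 over all detected genes. Ddit3, which encodes CHOP, a C/EBP that heterodimerises with the others and keeps them from their usual sites, went from 46 to 76 counts in untreated mice to 240 to 480 in treated mice (log2 fold change 2.84). Atf4, a stress-response factor and partner of C/EBPγ, had 835 to 1047 counts in untreated and 1850 to 2147 in treated mice (log2 fold change 1.24), and its relative Atf5 rose by 1.08. Batf, a zipper partner of JUN proteins, had 0 to 2 counts in untreated and 5 to 10 in treated mice (log2 fold change 2.40). It thus reached 5 counts here only in treated mice, and its call follows in part from the detection filter. Nfil3, a zipper repressor, rose by 1.89, while Hlf, Dbp and Tef, zipper activators that bind the same sites and follow the daily clock, changed by -2.29, -1.82 and -1.03. Cebpe, best known from granulocyte maturation, had 18 to 49 counts in untreated mice and 7 to 13 in treated mice (log2 fold change -1.57, SE 0.29), opposite to Cebpb and Cebpd. Cebpz, named for binding CCAAT and not a zipper protein, rose by 0.86. Trib1 and Trib2, pseudokinases that bring C/EBPα to the ubiquitin ligase COP1 for degradation, rose by 0.62 and 1.15, while Trib3 and Rfwd2, which encodes COP1, did not pass (0.13 and -0.17).

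Genes that are linked to C/EBP factors in liver were counted in 2 lists. Of 24 acute phase targets 20 were detected and 19 rose (22.7% of all detected genes did), with a median log2 fold change of 2.48. Nos2, named after its value was seen, had 0 to 1 counts in untreated and 8 to 42 in treated mice. In this table it reached 5 counts only in treated mice, so its call follows in part from the detection filter. The largest changes were those of Lcn2 (9.90), which encodes a siderophore-binding protein, and of the serum amyloid A genes Saa3 (9.56), Saa2 (8.58) and Saa1 (6.99). Saa3 went from 55 to 72 counts to 36892 to 52152. The 1 detected gene that did not pass, named after its value was seen, was Il1b (0.63, adjusted p = 0.094), the gene of the cytokine that was injected. The cytokine and enzyme genes Il6, Tnf, Csf3 and Ptgs2 were not detected, with at most 5 counts in any library of this table. Of 20 metabolic targets 15 fell and 2 rose (22.9% and 22.7% of all detected genes did), with a median of -0.51. The number that fell was 12 on Ion Torrent (STAR) and without mouse ILB_9577, and 17 with DESeq2. Cyp7a1, the rate-limiting enzyme of bile acid synthesis, changed by -4.72, from 849 to 3456 counts in untreated mice to 4 to 242 in treated mice. G6pc, the last step of glucose release, changed by -2.99, Cyp8b1, which acts in bile acid synthesis, by -2.06, and Gys2, liver glycogen synthase, by -1.63. Tat, tyrosine aminotransferase, and Hamp, which encodes the iron hormone hepcidin, rose by 1.51 and 1.21. Ttr, Pck1 and Arg1, named after their values were seen, did not pass (-0.31, -0.32 and -0.28), although Ttr did on Ion Torrent (-0.41, adjusted p = 0.014).

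Of 18 genes of the IL-1, IL-6 and NF-kB pathways, through which Cebpb and Cebpd are known to be induced, 15 rose and 2 fell (22.7% and 22.9% of all detected genes did), with a median log2 fold change of 1.24. The receptor gene Il1r1 changed most (3.46), followed by Nfkb2 (3.07), which encodes an NF-kB subunit, the feedback inhibitor Socs3 (2.30) and the TNF receptor gene Tnfrsf1a (2.05). Il1rap, which encodes the accessory chain of the IL-1 receptor, and Irak2, a kinase of that pathway, fell by 0.68 and 0.64 on the log2 scale. Map3k8, named after its value was seen, did not pass on Illumina (0.44, adjusted p = 0.12) and did on Ion Torrent (1.06, adjusted p = 0.0019). These lists were chosen with results of these data known and are described by their counts alone.

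Marker lists of liver and blood cells were counted in the same table, where 22.7% of detected genes rose and 22.9% fell. All 8 hepatocyte markers were detected, led by Alb at 805525 to 966350 counts in untreated mice, and 3 rose and 2 fell. Their summed level was lower in every treated mouse (93723 to 99754 counts per 1000000 library counts, RPM, against 104021 to 120304). Most of this sum was Alb, so it does not describe the markers alike. Alb and Cps1 fell (log2 fold change -0.53 and -0.89), while Hnf4a, Tat and Fga rose (1.05, 1.51 and 2.16). Of 12 neutrophil markers 8 were detected and all 8 rose. Of these, Ngp, Ltf, Retnlg, Cxcr2 and Mmp8 had at most 3 counts in any untreated mouse. In this table they reached 5 counts only in treated mice, so their calls follow in part from the detection filter. Elane, not detected, had 0 to 2 counts in untreated and 0 in treated mice. Ly6g, Mpo and Camp were not detected either, with 0 counts in untreated mice and at most 3 in treated mice. The summed level of the neutrophil list was 2.28 to 7.07 RPM in untreated and 50.4 to 113 in treated mice, with Ly6g, Mpo, Ngp, Camp and Ltf at 0 in all untreated Illumina STAR libraries. Of 12 Kupffer cell and macrophage markers 1 rose and 3 fell, and their summed level overlapped between groups (178 to 363 against 115 to 274 RPM). Endothelial, stellate, cholangiocyte and lymphocyte lists had 5 of 8, 2 of 6, 2 of 5 and 1 of 4 detected genes called, and their summed levels overlapped. Cebpb and Cebpd are also active in myeloid cells, and the part of incoming neutrophils in their rise, or of changes in cell makeup in the decline of Cebpa, was not tested.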

How the data were processed

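Counts per gene were deposited by the authors in 6 tables (2 platforms by 3 aligners) for the same 10 mice. The authors aligned reads to mm9 with GSNAP, STAR (2.5.1b) or STAR followed by Bowtie2 (2.2.9), removed ribosomal and mitochondrial reads with PORT, counted reads per Ensembl gene and drew every library of a table down to the same number of gene-mapping reads. Libraries of both platforms were strand-specific, but strand use in the deposited counts is not given in the sources used here. Genes with at least 5 counts in 5 of 10 libraries of any table were tested (15578 of 37681). edgeR 4.0.16 (TMM, quasi-likelihood, Benjamini-Hochberg) was the main test, in place of the study's rank-sum test, which was run beside it (two-sided) with DESeq2 1.42.0 and limma-voom 3.58.1. Calls use an adjusted p under 0.05. Fits were tested on simulated data. Libraries pair by mouse across platforms, per the labels. Coordinates, lengths and GC content come from GENCODE vM1 on NCBIM37, an Ensembl release close to the one the tables use; the tables list each gene with 250 (Illumina) or 246 (Ion Torrent) more bases on each side. Transcripts were compared with BLAST+ 2.17.0. The members and lists were chosen with earlier results of these data known. The text names, per list, the 4 called genes with the largest change, genes called against the majority and genes not detected, any relative, and the 3 genes most like each member.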

Additional observations from a re-analysis of the deposited data

Results flagged for a closer look

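Of 48 groups of 5 mice (4 genes, 2 treatments, 6 tables) 10 had 1 mouse far from the others in CPM by Dixon's test (gap over range above 0.71), where chance gives about 1 in 20. The same mouse accounts for the flags that recur between tables, which share reads, so they are not 10 independent observations.

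Treated mouse ILB_9577 stood apart for Cebpa in all 6 tables. It had 232 CPM in Illumina STAR, where the other treated mice had 113 to 140, 234 in Illumina GSNAP, 233 in Illumina STAR + Bowtie2, 409 in Ion Torrent STAR, 433 in Ion Torrent GSNAP and 422 in Ion Torrent STAR + Bowtie2, which is 1.77 to 1.86 times the median of the other treated mice. Untreated mouse UNT_9574 was low for Cebpa in Illumina STAR + Bowtie2, with 214 CPM against 273 to 295.

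Untreated mouse UNT_9584 was high for Cebpg, with 109 CPM against 86.5 to 89.5 in Illumina GSNAP and 111 CPM against 82.3 to 89.8 in Illumina STAR + Bowtie2. It is the mouse whose Illumina library deviated most along GC content. Treated mouse ILB_9583 had 6.65 CPM of Cebpd in Illumina STAR against 5.62 to 5.85 in the other treated mice, 1.16 times their median.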

How the results depend on the processing

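Of 124 alternative values of the 4 fold changes 122 kept their direction and their side of the threshold, over the other tables, DESeq2, limma-voom, other filters, no TMM and leaving out each mouse. The exceptions were Cebpg in the rank-sum test on Illumina STAR (0.23, q = 0.11) and, added after seeing the data, Illumina GSNAP (0.25, q = 0.070). The rank-sum test used deposited counts, on which the median gene changed by -0.15. The cause was not tested. Leaving out 1 mouse gave -1.09 to -0.77 for Cebpa, 1.23 to 1.47 for Cebpb, 1.99 to 2.52 for Cebpd and 0.36 to 0.61 for Cebpg, the fits of the other tables without mouse ILB_9577 included. Without TMM 2746 genes were called higher and 4335 lower, against 3541 and 3575 with it, and the members changed by -0.97, 1.23, 2.04 and 0.28. All 90 alternative values of the ratios and all 20 counts of the 4 lists of C/EBP-related genes stayed on their side or within 1.5 times. Of the marker lists, cholangiocyte calls went from 2 to 1 (rank-sum test, without ILB_9577), lymphocyte calls from 1 to 2 (no TMM), macrophage calls from 4 to 6 and stellate calls from 2 to 3 (both without ILB_9577; stellate also with no TMM and the rank-sum test). Untreated levels per kb moved by more than 1 SD in 13 of 20 alternatives, in all 12 on Ion Torrent and for Cebpb in Illumina STAR + Bowtie2 (8.13).

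The platform-by-treatment terms, near 0 for Cebpa and Cebpd, changed sign in 14 of 56 alternatives and never passed. Leaving out 1 mouse gave -0.026 to 0.042 for Cebpa, -0.26 to 0.013 for Cebpb, -0.25 to 0.26 for Cebpd and 0.13 to 0.28 for Cebpg, and STAR + Bowtie2 gave 0.047 for Cebpd. Without the replicate block the terms were -0.008, -0.19, -0.006 and 0.22. Cebpd had the fewest counts of the 4 genes, 6 to 28 in untreated libraries of Illumina STAR.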
